A study of Homo sapiens with 19 samples.

Results

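Gastric-type marker genes are genes whose products belong to the lining or glands of the stomach and that can also be switched on in tumours of the large bowel. ANXA10, CTSE, PGC, AQP5, VSIG1, SOX2 and GKN1 were chosen by name, with every probe set that the platform annotation assigns to one of them alone. They are 7 of the 19775 genes measured, and 12 of 41091 single-gene probe sets. ANXA10, CTSE, AQP5 and GKN1 have 1 probe set each, and PGC, VSIG1 and SOX2 have several. The values are log2 RMA values from Affymetrix arrays of 10 established colorectal cancer lines, grown untreated in DMEM with 10% FBS and harvested during exponential growth. SKCO1 is a microsatellite stable (MSS) line and LS174T a microsatellite unstable (MSI) line. They were set against the other 8 lines, which are RKO, SW48, HCT116 and LIM2405 (MSI) and HT29, T84, CACO2 and HCC2998 (MSS). Microsatellite instability is the gain or loss of repeat units in short DNA repeats after mismatch repair is lost. Each line had 2 arrays from duplicate cultures except T84 with 1, and each line is a single model, so a value of a line stands for that line alone.

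In the stomach, pit cells cover the surface with mucus while chief cells in the glands secrete the precursors of pepsin, and SOX2 is a transcription factor of the foregut, opposed along the gut by the hindgut factor CDX2. CTSE encodes cathepsin E, an intracellular aspartic protease of surface and gland cells, and PGC encodes pepsinogen C, a related precursor of a digestive protease. ANXA10 encodes a member of the annexins, many of which bind membranes in the presence of calcium. It is used as a marker of serrated lesions of the colon. AQP5 encodes a water channel of secretory glands, VSIG1 an adhesion protein of the stomach epithelium and GKN1 gastrokine, a secreted protein of pit cells.

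The label of stomach markers did not describe a pattern shared by SKCO1 and LS174T. Of the 7 genes, CTSE was highest in SKCO1, ANXA10 and AQP5 were highest in HT29, SOX2 and PGC were highest in CACO2, and VSIG1 and GKN1 stayed low in all 10 lines. LS174T was called higher than the mean of the 8 other lines for CTSE only, by a small margin, and its arrays overlapped those of HT29. Over the 19 arrays, 5 of the 7 genes differed between lines against the spread of duplicate cultures (limma, moderated F test, adjusted p = 1.66e-10 for ANXA10, 3.93e-08 for CTSE, 1.46e-08 for AQP5, 4.97e-05 for PGC and 0.00247 for SOX2). VSIG1 and GKN1 did not pass (adjusted p = 0.335 and 0.837). Of all genes, 67% passed this test, so 5 of 7 is close to the background. The p-values of single lines rest on how far duplicate cultures of a line lay apart, which may be technical, and they describe these cultures.

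Promoters are shown for the 4 members with a line at least 2 log2 above the median line by any probe set. These are the genes on which the line differences rest. SOX2 reached that height by probe sets 228038_at and 213721_at, but not by 213722_at, its probe set with the highest mean over lines. Each stretch runs 250 bases before to 50 bases after the annotated start, from RefSeq (GRCh38.p14), with every CG dinucleotide in capitals. ANXA10 lies at chr4:168092287-168092586 on the plus strand, CTSE at chr1:206023846-206024145 on the minus strand, SOX2 at chr3:181711675-181711974 on the plus strand and AQP5 at chr12:49961622-49961921 on the plus strand.
ANXA10: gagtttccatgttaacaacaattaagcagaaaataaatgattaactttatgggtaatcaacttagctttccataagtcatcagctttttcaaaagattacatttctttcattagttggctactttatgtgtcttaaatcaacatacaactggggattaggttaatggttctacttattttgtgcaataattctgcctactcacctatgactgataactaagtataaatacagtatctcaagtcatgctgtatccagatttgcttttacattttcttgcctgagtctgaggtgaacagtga
CTSE: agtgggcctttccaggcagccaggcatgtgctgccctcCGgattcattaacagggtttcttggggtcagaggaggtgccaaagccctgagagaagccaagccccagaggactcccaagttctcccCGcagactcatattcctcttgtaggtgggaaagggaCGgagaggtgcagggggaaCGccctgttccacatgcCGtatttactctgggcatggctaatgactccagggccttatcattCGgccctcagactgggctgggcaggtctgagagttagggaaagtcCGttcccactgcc
SOX2: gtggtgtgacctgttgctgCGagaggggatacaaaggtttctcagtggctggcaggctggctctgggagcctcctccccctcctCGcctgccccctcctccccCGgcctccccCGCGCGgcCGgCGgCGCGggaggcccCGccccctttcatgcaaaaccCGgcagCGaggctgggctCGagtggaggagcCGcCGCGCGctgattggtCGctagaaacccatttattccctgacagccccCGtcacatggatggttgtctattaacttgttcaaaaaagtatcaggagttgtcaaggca
AQP5: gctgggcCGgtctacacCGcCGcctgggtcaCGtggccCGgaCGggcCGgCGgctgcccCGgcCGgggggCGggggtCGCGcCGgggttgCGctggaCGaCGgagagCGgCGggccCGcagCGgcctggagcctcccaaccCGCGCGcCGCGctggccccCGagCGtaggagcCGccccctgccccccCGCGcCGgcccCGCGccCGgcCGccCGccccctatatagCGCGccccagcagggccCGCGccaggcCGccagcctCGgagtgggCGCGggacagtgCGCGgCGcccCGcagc

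The 4 windows differ in base composition. The ANXA10 window has 0 CG dinucleotides and a GC content of 32.7%, and 96.0% of the 35116 promoters in the table have more. The CTSE window has 7, the SOX2 window 20 and the AQP5 window 49, against a median of 14 over all promoters, and 1.29% of promoters have more than AQP5. Of the other members, PGC has 9 and GKN1 has 1. The letters TATAAA (either strand) occur in the ANXA10 window, starting 29 bases before the start, and in the PGC window, 30 bases before it, and 11.5% of all promoters hold them. The letters GATAA (either strand, overlapping no TATAAA) occur in the ANXA10, CTSE, PGC and GKN1 windows, and 22.7% of all promoters hold them. These are matches of letters only. Neither methylation nor binding was measured here.

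**Figure D1:**
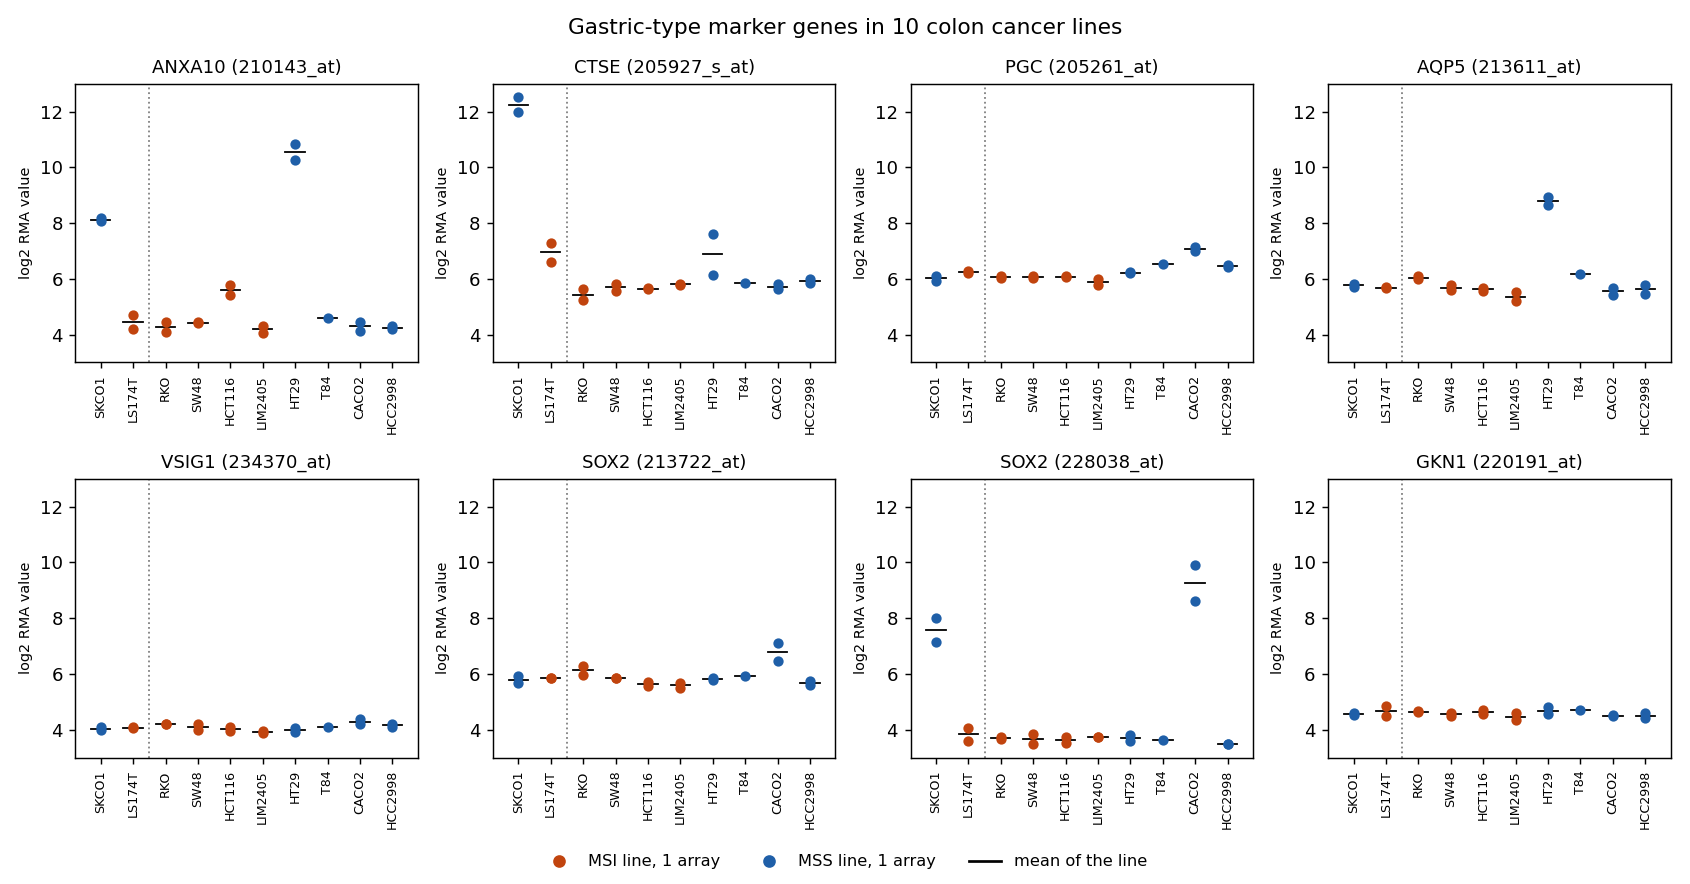
Each point is 1 array (log2 RMA value, vertical axis) and each bar the mean of a line (horizontal axis), for the brightest probe set of each member and a further SOX2 probe set. With SKCO1 and LS174T left of the dotted line, CTSE reaches 12.52 in SKCO1, ANXA10 reaches 10.85 and AQP5 8.94 in HT29, SOX2 (228038_at) reaches 9.89 in CACO2, and VSIG1 and GKN1 stay under 5 in every array.

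CTSE, cathepsin E, showed the largest difference of SKCO1 among the members. Its probe set lay at 12.52 and 11.97 log2 in SKCO1 and at 7.30 and 6.60 in LS174T. The other 8 lines had line means of 5.43 at the lowest, 5.76 at the median and 6.88 at the highest, which was HT29. Both SKCO1 arrays lay above all other arrays. LS174T overlapped HT29, whose cultures differed from each other at 7.61 and 6.15, and lay above the remaining 7 lines, whose arrays ran from 5.23 to 6.01. SKCO1 exceeded the mean of the other 8 lines by 6.37 ± 0.27 log2 (SE), an 82.9-fold difference (limma, adjusted p = 9.11e-10). LS174T exceeded it by 1.08 ± 0.27 (SE, 2.12-fold, adjusted p = 0.00736). With the second LS174T culture alone this was 0.73, and the call was lost (adjusted p = 0.186). SKCO1 lay above LS174T by 5.29 ± 0.36 (SE, adjusted p = 1.16e-07).

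ANXA10, the annexin, was high in HT29 and SKCO1. It lay at 8.18 and 8.06 in SKCO1 and at 4.69 and 4.19 in LS174T, while the line means of the other 8 lines ran from 4.18 over a median of 4.36 to 10.56. The HT29 arrays were the highest at 10.85 and 10.26, and HCT116 was next after SKCO1 at 5.76 and 5.41. The duplicates of HT29, SKCO1 and HCT116 did not overlap with each other or with any other line, and the other 7 lines, LS174T among them, lay between 4.06 and 4.69. SKCO1 exceeded the mean of the other 8 lines by 2.85 ± 0.17 log2 (SE, 7.22-fold, adjusted p = 1.99e-08) and LS174T by 3.68 ± 0.22 (SE, 12.8-fold, adjusted p = 3.39e-08). Without HT29 among the lines compared with, SKCO1 exceeded them by 3.61 log2. LS174T differed from the mean of the 8 by -0.83 ± 0.17 (SE, adjusted p = 0.00163), and this rests on HT29: without it the difference was -0.08 (adjusted p = 0.772). In a comparison of each line with the mean of the other 9, added after the values were seen, HT29 exceeded them by 5.65 ± 0.17 (SE, 50.1-fold, adjusted p = 6.39e-11).

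SOX2, the foregut transcription factor, depended on which of its 4 probe sets was read. Probe set 228038_at lay at 7.16 and 7.99 in SKCO1 and at 3.60 and 4.07 in LS174T. In CACO2 it lay at 9.89 and 8.61, above SKCO1, and the line means of the other 7 lines ran from 3.48 to 3.73. By this probe set only SKCO1 and CACO2 lay above the rest, with no overlap between them or with another line. In the fit over all 54613 probe sets, SKCO1 exceeded the mean of the other 8 lines by 3.22 ± 0.26 log2 (SE, 9.32-fold, adjusted p = 1.04e-06, where 29.5% of probe sets were called), and LS174T did not differ by the test (-0.52 ± 0.26, adjusted p = 0.159). CACO2 exceeded the mean of the other 9 lines by 5.14 ± 0.26 (SE, adjusted p = 7.75e-09). Probe set 213721_at gave the same order for these lines, at 8.52 and 6.84 in CACO2 and 6.38 and 6.51 in SKCO1, against line means of 5.10 to 5.88 elsewhere, although its SKCO1 difference of 0.67 ± 0.27 (SE) did not pass (adjusted p = 0.0850). The brightest probe set by its mean over lines, 213722_at, was highest in CACO2 at 7.11 and 6.45, with 5.66 and 5.91 in SKCO1, and 5.85 and 5.84 in LS174T. Its difference in SKCO1 was -0.14 ± 0.14 (SE, adjusted p = 0.497). Probe set 214178_s_at stayed between 4.26 and 4.98 in all arrays and did not differ between lines (moderated F test, adjusted p = 0.154).

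AQP5, the water channel, was high in HT29 alone. Its probe set lay at 5.82 and 5.72 in SKCO1 and at 5.65 and 5.70 in LS174T. HT29 had 8.64 and 8.94, T84 followed with 6.18, and the line means of the other 8 lines had a median of 5.65. HT29 overlapped with no other line and exceeded the mean of the other 9 lines by 3.07 ± 0.12 log2 (SE, 8.41-fold, adjusted p = 7.82e-10). SKCO1 and LS174T differed from the mean of the 8 by -0.34 ± 0.12 and -0.43 ± 0.12 (SE, adjusted p = 0.0459 and 0.0149). Both calls rest on HT29: without it the differences were 0.05 and -0.04 (adjusted p = 0.797 and 0.823). Of 7 members, HT29 had 2 higher by this comparison (ANXA10 and AQP5), against 13.5% of all genes.

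PGC, pepsinogen C, varied little and was highest in CACO2. The brighter probe set, 205261_at, lay at 5.92 and 6.10 in SKCO1 and at 6.27 and 6.20 in LS174T, and averaged 7.08 ± 0.11 in CACO2 (SD, n = 2). T84 at 6.52 and HCC2998 at 6.42 and 6.50 came next, and the arrays of the remaining 7 lines, SKCO1 and LS174T among them, lay between 5.76 and 6.27. CACO2 overlapped with no other line and exceeded the mean of the other 9 by 0.90 ± 0.09 log2 (SE, 1.87-fold, adjusted p = 3.60e-06). SKCO1 lay below the mean of the 8 lines at -0.28 ± 0.09 (SE, adjusted p = 0.0283), and without CACO2 the difference was -0.17 (adjusted p = 0.177). The second probe set, 1555236_a_at, was also highest in CACO2, at 6.49 and 5.35, against 4.40 to 5.28 in the arrays of the other lines. Of 7 members, CACO2 had 2 higher (PGC and SOX2), against 17.4% of all genes.

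VSIG1 and GKN1 were low in every line. Over all 19 arrays GKN1 lay between 4.34 and 4.83 log2, and the 2 probe sets of VSIG1 between 3.89 and 4.36 and between 3.28 and 4.13, all under the median of 5.67 of all deposited values. GKN1 line means spanned 0.25 log2, against a median SD between duplicate cultures of 0.12. Those of VSIG1 spanned 0.35 and 0.60. The highest VSIG1 line was CACO2 by both probe sets, at 4.27 and 4.12 on average, and CACO2 exceeded the mean of the other 9 lines by 0.50 ± 0.13 log2 (SE, limma over all probe sets, adjusted p = 0.0121) by the dimmer one, 243764_at. Neither gene, by its brightest probe set, was called in SKCO1, in LS174T or between MSI and MSS lines. At such low values a difference in expression may go unseen on the array, so these values do not show that the lines are alike.

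In all, by the brightest probe set of each gene, 4 of the 7 genes were called in SKCO1 against the 8 other lines. CTSE and ANXA10 were higher and PGC and AQP5 lower, while 37.5% of all genes were called. Higher calls made up 15.7% of all genes and lower calls 21.7%. In LS174T 3 were called, with CTSE higher and ANXA10 and AQP5 lower, against 34.8% of all genes, 20.8% higher and 14% lower. Between SKCO1 and LS174T, 2 members were called (CTSE and ANXA10, both higher in SKCO1), against 34.5% of all genes, 13.2% in that direction. With SOX2 read by probe set 228038_at, chosen after its values were seen, 5 members were called in SKCO1 and 3 between SKCO1 and LS174T. Over 1 in 3 genes passed in each of these contrasts, so the counts of members say little beside the sizes of the differences.

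**Figure D2:**
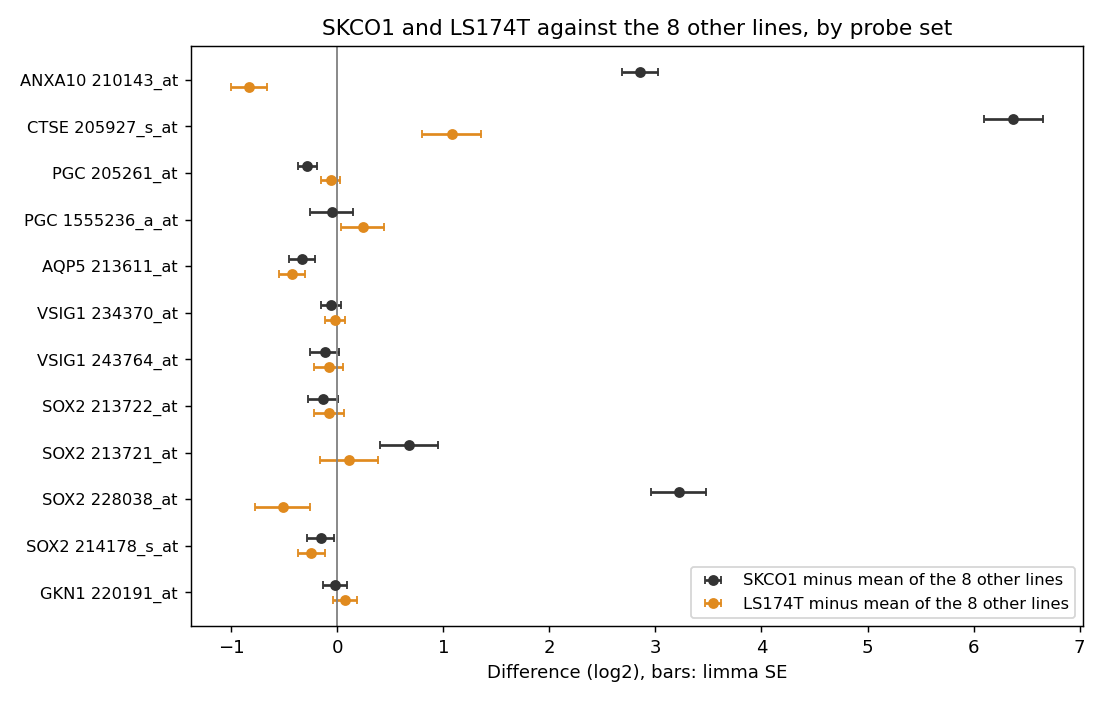
Differences of SKCO1 and of LS174T from the mean of the 8 other lines (horizontal axis, log2, points) with limma standard errors (bars), for all 12 member probe sets. SKCO1 is at 6.37 for CTSE, 3.22 for SOX2 228038_at and 2.85 for ANXA10, and LS174T is furthest to the right for CTSE at 1.08.

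The series compares MSI with MSS lines, and none of the 7 genes was called in that comparison (limma on line means, 5 lines each). Of all genes, 0.0455% were called. At an unadjusted p under 0.05 there were 0 of the 7 members, against 9.77% of all genes. ANXA10 averaged 4.58 ± 0.57 over the MSI lines and 6.37 ± 2.85 over the MSS lines (SD), a difference of -1.78 (limma, adjusted p = 0.656). CTSE averaged 5.90 ± 0.60 over the MSI lines and 7.33 ± 2.79 over the MSS lines (SD), a difference of -1.42 (limma, adjusted p = 0.708). PGC had 6.07 ± 0.12 in MSI and 6.46 ± 0.40 in MSS lines, and AQP5 had 5.68 ± 0.24 in MSI and 6.38 ± 1.37 in MSS lines (SD, n = 5 each). All 7 differences were negative, while 12718 of the 19775 genes had a positive one. The shared sign says little, since VSIG1 was at -0.044 and GKN1 at -0.0036, and SOX2 was at 0.0089 without CACO2. The wide spread of the MSS lines for ANXA10, CTSE and AQP5 comes with 1 or 2 high lines each. The MSI and MSS lines overlapped for every member, whereas for 2.59% of all genes they did not. Probe set 228038_at of SOX2 lay between 3.64 and 3.84 in the MSI lines and between 3.48 and 9.25 in the MSS lines (difference -1.81 ± 1.12, SE, adjusted p = 0.625 over all probe sets).

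**Figure D3:**
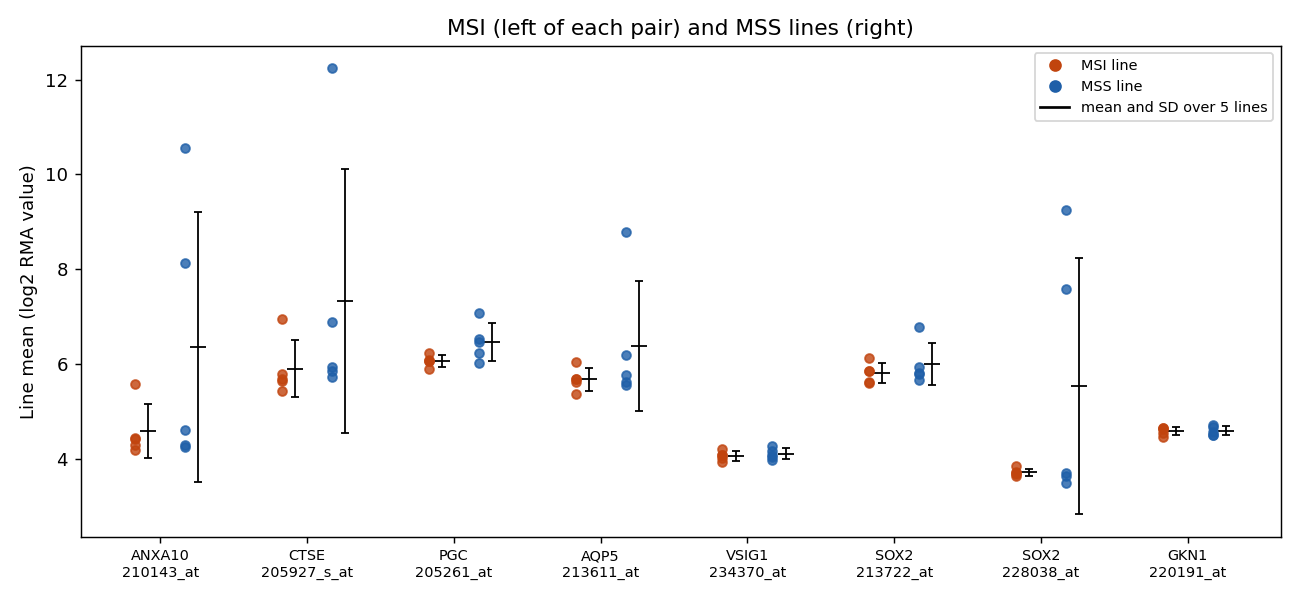
Line means (log2 RMA value, vertical axis) of MSI lines and, right of them, MSS lines for each member (horizontal axis), with the mean and SD over 5 lines beside the points. The highest line is an MSS line for every panel, such as CTSE at 12.24 in SKCO1, and the groups overlap in all panels.

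Other stomach genes were taken from a list of 12 pit and neck cell genes. In SKCO1 9 of the 12 rose and 2 fell, where 15.7% of all genes rose and 21.7% fell. The median difference there was 2.26 against -0.10 over all genes. In LS174T 7 rose and 0 fell, where 20.8% of all genes rose and 14% fell, with a median of 0.85 against 0.07. TFF1, a trefoil peptide secreted with mucus, had line means of 10.70 in SKCO1 and 10.99 in LS174T. CACO2 was next at 8.77, and the other lines lay between 4.74 and 6.58. It rose by 4.95 ± 0.26 log2 in SKCO1 and by 5.24 ± 0.26 in LS174T (SE, limma, adjusted p = 5.81e-09 and 5.06e-09). CAPN9, a calpain of the digestive tract, rose by 4.73 in SKCO1 and by 3.38 in LS174T. CAPN8, another stomach calpain, rose by 4.46 in SKCO1, while HT29 lay as high, at 10.72 against 10.49 in SKCO1. SULT1C2, a sulfotransferase, rose by 4.08 in LS174T, the largest difference of the list there after TFF1. In SKCO1 it was called lower, by 0.85, or by 0.44 without CACO2 among the lines compared with. Its line means were 9.30 in LS174T, 8.15 in CACO2, 6.76 in T84 and 5.88 in HCT116. SKCO1 lay at 4.37 and the remaining lines at 3.83 to 4.91.

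Mucin and junction genes of the same list split between the lines. MUC5AC, the pit cell mucin, had line means of 8.65 in SKCO1 and 6.68 in LS174T, and of 5.58 to 6.68 elsewhere. By 2 of its 4 probe sets it was highest in SKCO1, by the other 2 in RKO and in HCT116. MUC6, the mucin of neck and gland cells, was highest in LS174T at 9.91, with 8.12 in SKCO1 and 6.54 to 7.01 elsewhere. CLDN18, a claudin, was highest in SKCO1 by all 4 probe sets, at 8.25 by the brightest, against 5.87 in LS174T and 5.78 to 6.21 in the other lines. TFF2, the trefoil peptide of neck cells, lay at 8.81 in SKCO1 and 6.42 in LS174T. CACO2 had 6.60 and HT29 6.30, and the remaining lines had 4.97 to 5.39. PSCA, a surface antigen, lay at 7.42 in SKCO1 and 7.33 in HT29, the same lines in which ANXA10 was high, and at 4.66 to 5.02 elsewhere. VSIG2, a relative of VSIG1, was high in HT29 alone at 8.84, and GKN2, which lies next to GKN1, ranged from 4.43 to 4.67 over the lines.

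Of 8 measured gland genes, 0 rose and 2 fell in SKCO1, where 15.7% of all genes rose and 21.7% fell, and 1 rose and 1 fell in LS174T, where 20.8% rose and 14% fell, so these counts are near the background. The calls in SKCO1 were BHLHA15, a transcription factor of secretory cells, at -0.69, and GHRL, ghrelin, at -0.27. Both were lost without SW48 among the lines compared with (-0.24 each, adjusted p = 0.503 for BHLHA15 and 0.0732 for GHRL). In LS174T BHLHA15 was called lower, at a line mean of 5.65 against 6.50 to 11.78 in the 8 other lines. LIPF, gastric lipase, rose by 0.28 in LS174T, at a line mean of 4.10, and this call was lost without HCT116 (adjusted p = 0.0645). The proton pump genes ATP4A and ATP4B were called in neither line.

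In the foregut transcription factor list of 9 genes, 3 rose and 3 fell in SKCO1, and 4 rose and 0 fell in LS174T. Of all genes, 15.7% rose and 21.7% fell in SKCO1, and 20.8% rose and 14% fell in LS174T. Counts from so short a list say little beside these shares. FOXA1, a pioneer factor of endoderm, lay at 10.23 in SKCO1 and 8.10 in LS174T, at 10.14 in CACO2 and 9.17 in HT29, and at 4.50 to 6.89 in the other 6 lines. It rose by 3.42 in SKCO1 and by 1.28 in LS174T. GATA6, a zinc finger factor of endoderm, rose by 2.35 in SKCO1 and by 2.61 in LS174T. Its line means were 11.42 in SKCO1 and 11.68 in LS174T, against 6.32 (SW48) to 11.66 (CACO2) in the 8 other lines. FOXQ1 rose by 3.42 in SKCO1, and its difference of 1.01 in LS174T did not pass without RKO (0.34, adjusted p = 0.293). FOXQ1 lay at 12.98 in SKCO1, with 4.89 (RKO) to 13.03 (SW48) in the 8 other lines. FOXA2, another pioneer factor of endoderm, was called lower in SKCO1, by 1.88. Its line mean was 4.87 there, 7.26 in HT29, 10.13 in CACO2 and 10.69 in T84. The remaining lines compared with lay near SKCO1, at 5.07 to 5.30. KLF4, a factor of differentiated epithelium, was called in opposite directions, at -0.83 in SKCO1 and 1.61 in LS174T, and the SKCO1 call was lost without LIM2405 (-0.46, adjusted p = 0.0942).

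Intestinal genes were high in SKCO1 and LS174T as well. Of 10 measured intestinal identity genes, 8 rose and 0 fell in SKCO1, and 7 rose and 1 fell in LS174T. The median differences were 2.30 and 2.45. Among all genes 15.7% rose and 21.7% fell in SKCO1, and 20.8% rose and 14% fell in LS174T. CDX2, the hindgut factor, had line means of 9.56 in SKCO1 and 8.96 in LS174T, and it rose by 1.76 and 1.17 against the 8 other lines. In HT29, the line with the highest ANXA10 and AQP5, CDX2 lay at 6.47, the lowest of the 10 lines. In CACO2, the line with the highest SOX2, it lay at 9.09. The largest differences in SKCO1 were those of KRT20, an intestinal keratin (5.73), LGALS4, a galectin of enterocytes (4.65), and CDH17, an intestinal cadherin (4.23). In LS174T they were those of LGALS4 (5.38), GPA33, a surface antigen of intestinal epithelium (5.14), and CDH17 (4.78). KRT20 was called lower in LS174T, by 1.65, or by 0.95 without HT29. Its line mean there was 6.47, against 11.93 to 12.97 in HCC2998, T84 and HT29. The remaining lines compared with lay lower than LS174T, at 5.11 to 5.99. These genes were not high in SKCO1 and LS174T alone: CDH17 lay at 12.91 in SKCO1 and 13.47 in LS174T, against 13.79 in T84 and 13.25 in HCC2998. Of 5 further serrated lesion markers, 3 rose and 2 fell in SKCO1, and 4 rose and 1 fell in LS174T. The shares of all genes given above apply here too. REG4, a lectin of secretory cells, rose by 4.09 in SKCO1 and by 5.58 in LS174T. It lay at 10.06 in SKCO1 and 11.56 in LS174T, with 4.41 (SW48) to 10.57 (T84) in the 8 other lines. SERPINB5 rose by 3.26 in SKCO1, S100P by 3.15 in SKCO1 and by 3.37 in LS174T, and MUC17, a membrane mucin, by 2.86 in LS174T. Another line lay higher for each. SERPINB5 was at 12.10 in SW48 against 11.68 in SKCO1, and MUC17 at 11.16 in HCC2998 against 8.36 in LS174T. S100P was at 14.17 in LIM2405, against 13.61 in SKCO1 and 13.83 in LS174T. TM4SF4 was called lower in both lines, at -2.18 in SKCO1 and -1.58 in LS174T. Without HCC2998 these were -1.33 and -0.72, and the LS174T call was lost (adjusted p = 0.0690). The TM4SF4 line means were 5.34 in SKCO1 and 5.95 in LS174T. CACO2, HT29 and HCC2998 lay at 9.34 to 13.5, and the remaining lines at 4.99 to 5.37. MUC17 was also called lower in SKCO1 (-0.59, limma, adjusted p = 0.000525), a call lost without HCC2998 (0.22, adjusted p = 0.118).

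**Figure D4:**
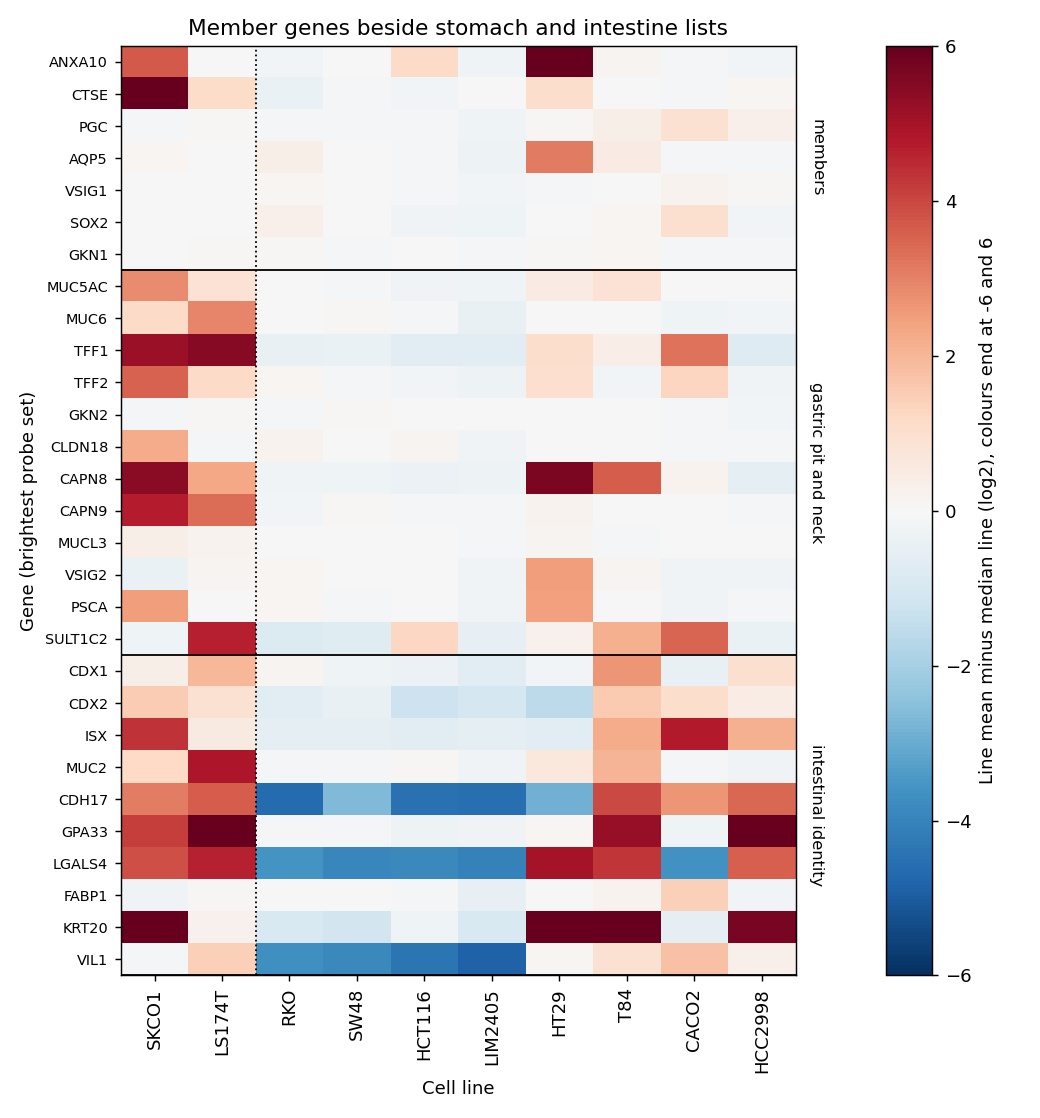
Line mean minus the median line (log2, colour) for the members and for the pit and neck and intestinal identity lists (vertical axis, brightest probe set of a gene) in the 10 lines (horizontal axis). TFF1 and CAPN9 are highest in SKCO1 and LS174T, left of the dotted line, while CDH17 and LGALS4 are also high in T84 and HCC2998, and the 7 members at the top have few coloured cells, mainly in SKCO1 and HT29.

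Relatives of the members were examined for the same lines. Among 10 annexins, 5 rose and 3 fell in SKCO1, and 3 rose and 2 fell in LS174T. The shares over all genes were 15.7% higher and 21.7% lower in SKCO1, and 20.8% and 14% in LS174T. ANXA1 rose by 2.69, ANXA9 by 2.63 and ANXA3 by 2.19 in SKCO1. Single low lines carry part of this: the difference was 1.76 for ANXA1 without CACO2 and 1.17 for ANXA3 without RKO, both still called. ANXA9 lay at 9.36 in SKCO1, below 10.35 in CACO2 and 9.87 in HT29. In LS174T ANXA6 fell by 1.72, ANXA5 fell by 1.20 and ANXA9 rose by 1.02 (1.54 without CACO2). Of 4 aspartic protease genes, BACE2 rose by 2.97 in SKCO1 and by 3.37 in LS174T, whereas CTSD, the lysosomal relative of CTSE, rose by 1.19 in SKCO1. In LS174T CTSD was at -0.57, a call lost without T84 (adjusted p = 0.0743). BACE1 fell by 0.88 in SKCO1 and by 0.96 in LS174T. Among 9 aquaporins, AQP3 rose by 3.78 and AQP2 fell by 0.44 in SKCO1. AQP3 lay at 11.97 in SKCO1, below 13.08 in HT29 and 12.03 in CACO2. In LS174T AQP11 rose by 0.93 (1.52 without CACO2), and AQP9 was at 0.27, a call lost without LIM2405 (adjusted p = 0.0629). The chromosomal neighbours of AQP5, AQP2 and AQP6, were called in neither direction in HT29 (0.21 and 0.02 against the other 9 lines, adjusted p = 0.260 and 0.944). SOX9 rose by 2.26 in SKCO1, or by 1.37 without RKO, where it lay at 4.02. SOX4 rose by 2.04 and SOX15 fell by 0.64 in SKCO1. SOX4 was at 0.41 in LS174T, a call lost without LIM2405 (0.11, adjusted p = 0.572), and SOX1, SOX3 and SOX14 were called in neither line. The measured neighbours of CTSE, RAB7B and RHEX, differed by 0.08 and -0.21 in SKCO1, and those of ANXA10, SPOCK3 and DDX60, by -0.14 and -0.30 (adjusted p = 0.234 to 0.837). The neighbours were chosen after the values were seen.

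The genes most like a member over the 10 lines were taken from the 2644 genes with an SD of at least 1 log2 over lines, and each is given as a description. For CTSE they were PHACTR3 (Pearson's r = 0.987, Spearman's rho = 0.673), KRT12 (0.983 and 0.539) and FSIP2 (0.980 and 0.552), each highest in SKCO1. For ANXA10 they were FER1L4 (r = 0.977, rho = 0.782), PSCA (0.942 and 0.770) and SLITRK6 (0.932 and 0.491). For AQP5 they were TPPP3 (r = 0.985, rho = 0.939), GABRP (0.982 and 0.770) and AFAP1-AS1 (0.974 and 0.733). Without SKCO1 and LS174T, the r with CTSE was 0.71 for PHACTR3, 0.74 for KRT12 and 0.57 for FSIP2. Without HT29 and T84, the r with AQP5 was 0.89 for TPPP3, 0.56 for GABRP and 0.59 for AFAP1-AS1. Without HT29 and SKCO1, the r with ANXA10 was 0.42 for FER1L4, 0.34 for PSCA and -0.11 for SLITRK6. For probe set 228038_at of SOX2, chosen after its values were seen, CSGALNACT1 (r = 0.995, rho = 0.479), FN1, fibronectin (0.989 and 0.648), and PWAR6 (0.986 and 0.782) came first. Without CACO2 and SKCO1 these r were 0.06 for CSGALNACT1, 0.11 for FN1 and 0.60 for PWAR6. FN1 lay at 10.58 in SKCO1, 5.44 in LS174T and 13.01 in CACO2, and at 4.84 to 6.32 in the other lines. The lines share one normalization, and no p is given for these correlations over 10 lines.

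The epithelial label of the lines was checked with 9 markers. In SKCO1 and LS174T 9 of 9 lay above the median of all values, and in the other lines 5 to 9 did, with RKO lowest. Marker lists of other cell types had medians of 5.46 in SKCO1 and 5.51 in LS174T for fibroblasts, 4.93 and 5.32 for endothelium, and 5.25 and 5.64 for leukocytes, all under the median of 5.67. Single markers did lie above it: 2 of 6 for fibroblasts, 2 of 5 for endothelium and 0 of 5 for leukocytes in SKCO1. In LS174T these counts were 2 of 6, 2 of 5 and 2 of 5. Among the 8 other lines, the fibroblast list had a median above that of all values in CACO2 (6.0045), RKO (5.7744) and SW48 (5.6978). The leukocyte list did so in CACO2 (5.7057). All other medians of these lists, those of HT29 among them, lay under it. The leukocyte marker CD14 had line means of 8.35 in CACO2 and 7.24 in HT29. The cause of these higher values was not tested. No scan date or batch is given by the labels, so no batch could be compared. Duplicate cultures correlated across probe sets at r of 0.9952 in SKCO1, 0.9815 in LS174T and 0.9777 in HT29.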

How the data were processed

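Affymetrix arrays measured RNA of 19 cultures of 10 lines. The authors deposited log2 values, which the submitters' processing notes name as RMA; no version was found. RMA subtracts background, equalises arrays and summarises probes, which compresses differences near background. The 2 deposited tables hold equal values. The 62 control probe sets were left out. A gene was represented by its single-gene probe set (platform annotation) with the highest mean over lines, with no filter on dim values. Fits used limma 3.58.1 in R 4.3.3 (Benjamini-Hochberg over 19775 genes or 54613 probe sets, threshold 0.05), on 19 arrays with a term per line, and on 10 line means for MSI minus MSS. The number of arrays limits the precision. Of each gene list the 3 largest called differences in a line were named, and for each member reaching 2 log2 above the median line the 3 genes most like it. Other genes named from the lists, the comparisons of 1 line with the other 9, the neighbours and the fits without 1 line were added once the values had been looked at. The members and lists were chosen with earlier results of these data known. Alternatives changed the probe set, normalization, filter, eBayes settings, replicate block and lines. Promoters came from RefSeq for 6 of the 7 members.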

Additional observations from a re-analysis of the deposited data

Results flagged for a closer look

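Within the 5 MSI or 5 MSS lines, 6 probe set values lay far from the other 4 lines, by a gap of more than 0.71 of the range of the 5. Chance flags about 1 in 20 groups, and 24 groups were looked at. In the MSI lines, ANXA10 lay at 5.59 log2 in HCT116, against 4.18 to 4.44 in the others, and CTSE at 6.95 in LS174T, against 5.43 to 5.80. In the MSS lines, CTSE lay at 12.24 in SKCO1, against 5.72 to 6.88, and AQP5 at 8.79 in HT29, against 5.55 to 6.18. CACO2 was the high MSS line for the PGC probe set 1555236_a_at (5.92, against 4.80 to 4.97) and for the SOX2 probe set 213722_at (6.78, against 5.67 to 5.93). The cause of these values was not tested.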

How the results depend on the processing

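CTSE and ANXA10 stayed higher in SKCO1 under every alternative run, and 0 members were called between MSI and MSS lines under any. Leaving out 1 culture gave 2 to 3 members called in SKCO1, against 4 with all arrays, and 1 to 3 in LS174T, against 3. In LS174T, 1 was called against the other 4 MSI lines, and 1 without HT29 among the lines compared with, an alternative chosen after seeing the data. AQP5 turned direction without HT29 in SKCO1 (0.0482) and against the other 4 MSI lines in LS174T (0.0027), and its SKCO1 call was also lost without either LS174T culture, with the probe set of largest interquartile range, over all probe sets, and with a second quantile normalization or median centring (adjusted p = 0.0501 to 0.0630). The PGC call in SKCO1 was lost with the mean of its probe sets (-0.17, adjusted p = 0.332). Neither the AQP5 nor the PGC call in SKCO1 held when either SKCO1 culture was left out. Without the first and without the second, AQP5 differed by -0.39 and -0.28, and PGC by -0.20 and -0.37. SOX2 turned with its probe set: SKCO1 lay above the 8 other lines by 0.90 with the mean of its probe sets and by 3.22 with the widest-ranging one, and above LS174T by 1.08 and 3.74. The culture numbers did not pair the lines, since differences between cultures correlated between lines at a median r of 0.03, with 7 of 36 pairs over 0.1. With the replicate block, 4 members were called in SKCO1 and 3 in LS174T, as without it. Dim probe sets (VSIG1, GKN1) limit what differences can be seen.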

Other observations

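In HT29, the line with the highest ANXA10 and AQP5, a marker of serrated lesions and another annexin were called higher, though both were higher still in HCC2998, where ANXA10 and AQP5 were low. Against the other 9 lines, TM4SF4, a serrated lesion marker, rose by 5.06 ± 0.28 log2 (SE, 33.3-fold, limma, adjusted p = 2.41e-08), and ANXA13, an annexin of the intestine, by 3.76 ± 0.36 (SE, 13.6-fold, adjusted p = 3.26e-06). TM4SF4 lay at 11.70 in HT29 and 13.51 in HCC2998, and ANXA13 at 10.32 in HT29 and 12.60 in HCC2998. RAB7B, the gene next to CTSE, rose by 1.40 ± 0.25 in HT29 (SE, adjusted p = 0.000674). DDX60, next to ANXA10, rose by 1.91 ± 0.24 in LS174T against the 8 other lines (SE, adjusted p = 2.95e-05), where ANXA10 was at the level of the low lines. In CACO2, the line with the highest SOX2, DDX60 fell by 3.32 and ATP11B, next to SOX2, rose by 0.55 (limma, adjusted p = 8.78e-08 and 0.00378). These genes were chosen after their values were seen.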
